A study of Mus musculus with 15 samples.

Results

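The genes described here are 10 mouse genes with mostly lower levels in the epididymis of Plag1 knockout mice: Treh, Kap, Mep1a, Mep1b, Mcoln3, Amdhd1, Upb1, Pipox, Slc25a33 and Pappa2. They are 10 of the 41591 gene IDs in the count table, matched by NCBI Gene ID, and 9 of them were among the 19388 genes with enough counts to be tested. Mep1b had 0 counts everywhere and was not tested. The members were chosen by measured values, mostly for large falls in KO in these same libraries. Differences between KO and the other genotypes are therefore given for the members as a description. Where the text counts members past the threshold of the fit over all genes, the share of all genes stands beside the count and nothing is read from it.

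Stranded mRNA libraries were made from whole epididymides of 15 mice, 1 per animal, at an age of 7 weeks. For Plag1, a gene for a transcription factor with zinc fingers, 5 animals were knockouts (KO), 5 were heterozygotes (HET) and 5 were wild type (WT). The strain label of all 3 genotypes reads Brown Swiss, and the labels do not say which part of Plag1 is disrupted or whether the loss is limited to a cell type. Tissue was teased apart and rinsed to remove sperm, so a library mixes every remaining cell type of the duct. In such bulk samples, fewer cells of a type and less RNA per cell cannot be told apart.

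KO libraries held 25.3 to 42.0 M counts, HET libraries 23.6 to 33.8 M and WT libraries 20.3 to 27.8 M. Plag1 itself ran from 7 to 9.38 CPM (a count divided by the library size in M, with library sizes scaled by the trimmed mean of M-values, TMM) in KO, 8.12 to 11.8 in HET and 12 to 14 in WT. Its log2 fold change in KO against WT was -0.61 ± 0.10 (SE, adjusted p = 0.00491, edgeR). Reads from exons that the mutation leaves intact would check nothing about the labels. Of the KO libraries, KO-738 stood apart: on the first principal component, which held 29.3% of the variance, it lay at -17.8, against 26.8 to 48.5 in the other 4 KO libraries, -17.8 to 5.9 in HET and -19.9 to -11.0 in WT. KO-738 and HET-693 also held the most reads of the ribosomal RNA gene Rn18s-rs5, 1.289% and 1.296% of counts, against at most 0.509% in any other library. The values below are therefore given with and without KO-738 where it moves them. Animals numbered below 700 were KO-694, KO-695, KO-696, HET-692 and HET-693, and every WT animal was numbered 700 or above. What those numbers stand for was not given in the labels, and the KO values are also given within one number range.

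The epididymal duct is lined by tall absorptive and secretory cells that carry long apical processes, and it shares its embryonic origin, the mesonephric duct, with parts of the urinary tract. A brush border is a dense array of apical microvilli, best known in kidney proximal tubule and small intestine, where membrane-anchored enzymes cut sugars and peptides at the cell surface. Catabolic enzymes break amino acids and nucleotides down inside the cell. Endolysosomal channels release cations from vesicles into the cytosol.

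The promoters of 3 members are shown because they hold letters of a site for HNF4, a factor of liver, kidney and gut, or a TATA box. Each window runs from 250 bases before the start of transcription to 50 bases after it, as RefSeq gives it on GRCm38.p6, in the direction of the gene. They lie at chr9:44672983-44673282 on the plus strand (Treh), chr11:77893823-77894122 on the minus strand (Pipox) and chr6:133853618-133853917 on the minus strand (Kap). In the Treh and Pipox windows the capitals mark TGGACTTTG, which reads CAAAGTCCA, a match to the HNF4 site, on the other strand. In the Kap window they mark CCCCTCCCCGCCCC, a match to the PLAG1 core-and-cluster motif on the other strand, and the TATA box TATAAA.
Treh: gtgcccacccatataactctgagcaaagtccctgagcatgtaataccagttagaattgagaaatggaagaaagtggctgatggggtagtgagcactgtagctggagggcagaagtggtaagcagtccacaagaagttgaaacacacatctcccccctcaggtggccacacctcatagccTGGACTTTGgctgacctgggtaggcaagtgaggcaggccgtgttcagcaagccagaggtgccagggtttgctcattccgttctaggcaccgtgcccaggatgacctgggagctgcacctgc
Pipox: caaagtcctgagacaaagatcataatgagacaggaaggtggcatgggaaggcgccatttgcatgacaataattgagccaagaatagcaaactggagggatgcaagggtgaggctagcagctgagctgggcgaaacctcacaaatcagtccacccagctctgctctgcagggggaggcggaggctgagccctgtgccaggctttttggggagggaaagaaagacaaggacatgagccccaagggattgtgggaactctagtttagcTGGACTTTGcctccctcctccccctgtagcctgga
Kap: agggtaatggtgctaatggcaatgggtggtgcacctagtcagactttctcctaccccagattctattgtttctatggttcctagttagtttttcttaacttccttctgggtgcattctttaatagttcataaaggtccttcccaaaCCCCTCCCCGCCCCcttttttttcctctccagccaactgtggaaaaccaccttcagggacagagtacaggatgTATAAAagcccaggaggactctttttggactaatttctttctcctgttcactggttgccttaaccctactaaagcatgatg

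Treh, Mep1a and Mep1b are brush-border genes, and Kap, a kidney tubule gene, is described with them. Treh encodes trehalase, an enzyme anchored to brush-border membranes that splits the sugar trehalose into glucose, and lies at 44673233 to 44686305 on chromosome 9 of GRCm38.p6. Treh stood at 0.659, 0.895, 0.485, 2.63 and 0.986 CPM in KO, in order of animal number, at 3.27, 1.34, 4.23, 4.08 and 3.06 CPM in HET, and at 6.84, 5.87, 1.5, 6.62 and 8.4 CPM in WT. The 4 KO libraries other than KO-738 lay below every HET and WT library, while KO-738 overlapped both through HET-693 and WT-720, the lowest library of each of those genotypes. The KO mean was 1.13 ± 0.863 CPM, the HET mean 3.2 ± 1.15 CPM and the WT mean 5.85 ± 2.6 CPM (SD, n = 5 each). KO against WT gave a log2 fold change of -2.37 ± 0.49 (SE), the 4th lowest of all tested genes, and -2.94 without KO-738. Treh rested on 17 to 84 counts per library in KO, 37 to 120 in HET and 42 to 206 in WT.

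Mep1a, on chromosome 17 at 43474324 to 43504143, encodes the alpha subunit of meprin, an astacin-family metalloprotease of kidney and gut brush borders. Mep1a stood at 8.56, 7.28, 4.97, 20.1 and 10 CPM in KO, at 18.3, 17.2, 24.3, 20.4 and 18.2 CPM in HET, and at 22.8, 19.3, 20.6, 24 and 24.1 CPM in WT. The KO spread came from 1 library: KO-738 lay inside the HET and WT ranges, and the other 4 KO libraries lay below both. The log2 fold change of KO against WT was -1.13 ± 0.27 (SE) with KO-738 and -1.53 without it. Mep1b encodes the beta subunit, which pairs with the alpha subunit in the membrane-bound form of the enzyme. It lies on chromosome 18 and had 0 counts in all 15 libraries, which allows up to 0.0715 CPM on the unscaled total in the deepest library (KO-696) and up to 0.148 in the shallowest (WT-719), by a floor of 3 counts that covers counting error only. Meprin transcripts in this tissue were thus detected for the alpha subunit and not for the beta subunit at this depth.

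Kap, at 133849855 to 133853667 on chromosome 6, encodes kidney androgen regulated protein, known for its androgen-dependent expression in the proximal tubule of mouse kidney. Kap stood at 0.349, 0.196, 0.347, 0.596 and 0.209 CPM in KO, at 1.65, 1.38, 2.89, 0.692 and 1.25 CPM in HET, and at 1.19, 1.15, 1.04, 0.951 and 2.41 CPM in WT. Every KO library, KO-738 included, lay below every HET and every WT library, while HET and WT overlapped. These are low levels, from 7 to 19 counts per library in KO, 19 to 82 in HET and 23 to 59 in WT. The log2 fold change was -1.98 ± 0.40 in KO against WT and -2.21 ± 0.40 in KO against HET (SE), the 6th and the 2nd lowest of all tested genes.

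**Figure D1:**
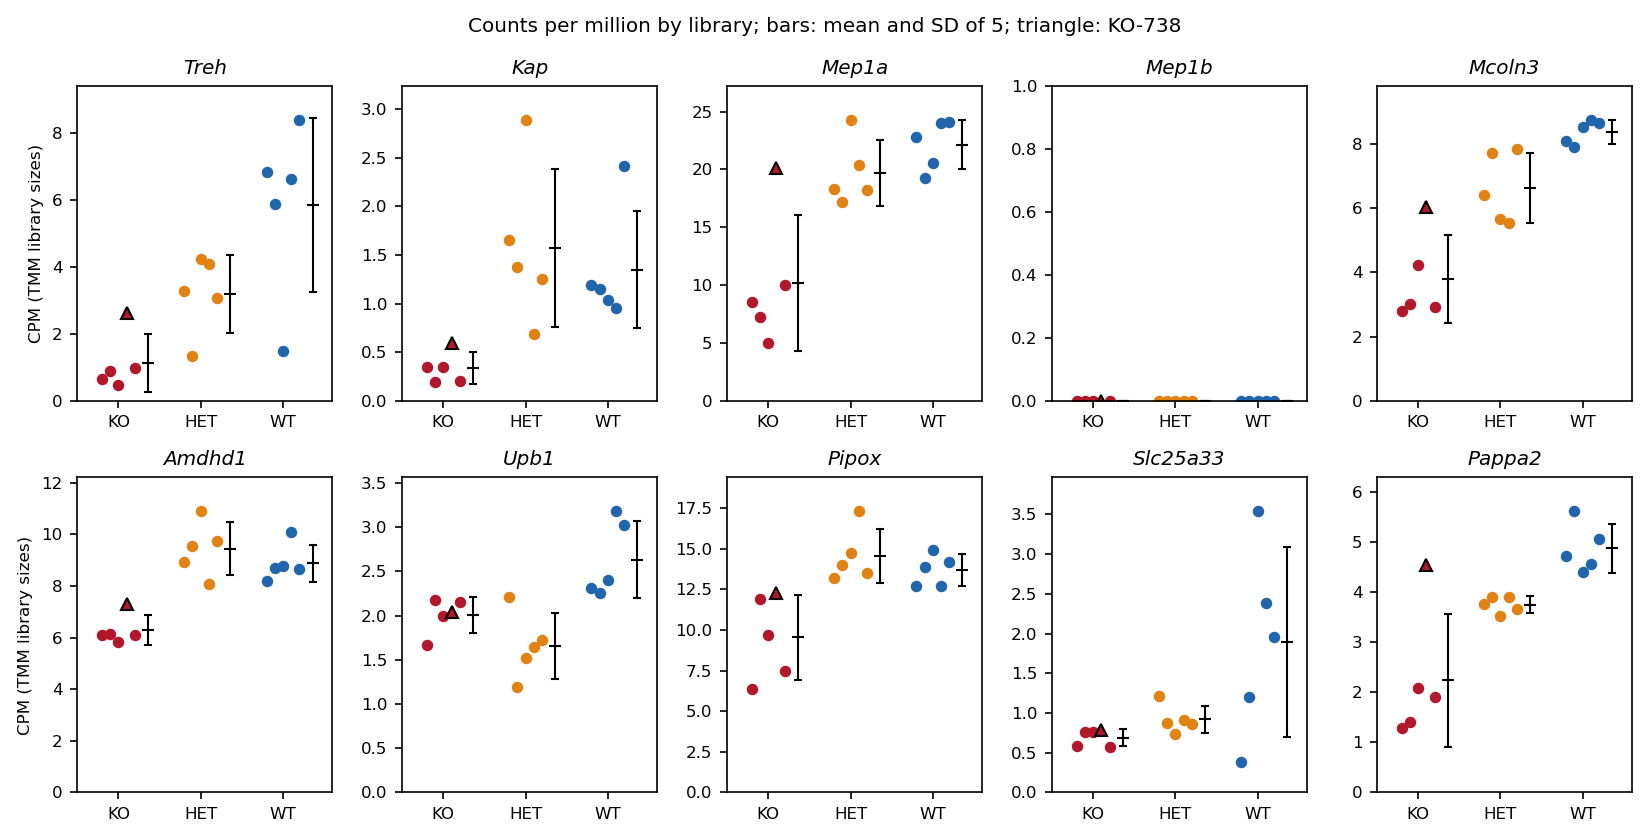
CPM of the 10 members in each library (1 point per animal) by genotype, KO left of HET and WT, with the mean and SD of 5 beside the points; the triangle is KO-738. KO-738 is the highest KO library for 8 of the 9 members that were detected, and Mep1b is at 0 in all 15 libraries.

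Mcoln3, on chromosome 3 at 146093277 to 146141808, encodes TRPML3, a cation channel of endosomes and lysosomes. Its mean level was lowest in KO and highest in WT, with HET between, as it was for Treh, Mep1a, Slc25a33 and Pappa2. Mcoln3 stood at 2.79, 3.02, 4.23, 6.02 and 2.93 CPM in KO, at 6.39, 7.71, 5.64, 5.54 and 7.83 CPM in HET, and at 8.07, 7.88, 8.51, 8.74 and 8.65 CPM in WT. All 5 KO and all 5 HET libraries lay below all 5 WT libraries, and only KO-738 reached into the HET range. The highest HET library, at 7.83 CPM, lay just under the lowest WT library, at 7.88 CPM. Within WT the SD was 0.374 CPM around a mean of 8.37 CPM, against an SD of 1.37 around 3.8 CPM in KO and 1.1 around 6.62 CPM in HET (n = 5 each). KO against WT gave a log2 fold change of -1.14 ± 0.18 (SE). Mcoln3 overlaps Wdr63 on the opposite strand, which had 58 to 295 counts per library and a log2 fold change of 0.58 ± 0.26 (SE, adjusted p = 0.191, edgeR). The overlap runs from 146093277 to 146108100 and ends before the Mcoln3 promoter window searched below, which begins at 146121541. The strand setting of the authors' counting is not given in the sources used here. Reads of the pair in that stretch may therefore have been mixed.

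Of the members, 3 encode catabolic enzymes, and their differences were smaller. Amdhd1 (chromosome 10, 93523338 to 93540111) encodes imidazolonepropionase, which opens the imidazole ring during histidine breakdown. Amdhd1 stood at 6.12, 6.13, 5.82, 7.31 and 6.1 CPM in KO, at 8.95, 9.56, 10.9, 8.09 and 9.73 CPM in HET, and at 8.19, 8.69, 8.76, 10.1 and 8.65 CPM in WT. All KO libraries lay below all HET and all WT libraries, and the 4 KO libraries other than KO-738 lay within 5.82 to 6.13 CPM. For Amdhd1 the log2 fold change was -0.50 ± 0.09 in KO against WT and -0.59 ± 0.09 in KO against HET (SE).

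Pipox (chromosome 11, 77880614 to 77893872) encodes a peroxisomal oxidase of sarcosine and of pipecolic acid, an intermediate of lysine breakdown. Pipox stood at 6.39, 11.9, 9.68, 12.3 and 7.5 CPM in KO, at 13.2, 14, 14.7, 17.3 and 13.5 CPM in HET, and at 12.7, 13.9, 14.9, 12.7 and 14.2 CPM in WT. KO libraries were spread over a wide range that ended just under the lowest WT library, and HET overlapped WT. KO against WT gave a log2 fold change of -0.52 ± 0.15 (SE). A long noncoding RNA, Gm29932, overlaps Pipox and had 6 to 18 counts per library.

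Upb1 (chromosome 10, 75406911 to 75441679) encodes beta-ureidopropionase, the last step of pyrimidine base breakdown, which yields beta-alanine. Upb1 was the one tested member that was not lower in KO than in HET. It stood at 1.67, 2.18, 1.99, 2.04 and 2.15 CPM in KO, at 2.21, 1.19, 1.52, 1.64 and 1.72 CPM in HET, and at 2.31, 2.26, 2.4, 3.18 and 3.02 CPM in WT. Both KO and HET lay wholly below WT and overlapped each other, with means of 2.01 ± 0.206 CPM in KO, 1.66 ± 0.368 CPM in HET and 2.63 ± 0.434 CPM in WT (SD, n = 5 each). For Upb1 the log2 fold change was -0.39 ± 0.16 in KO against WT and 0.27 ± 0.16 in KO against HET (SE).

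Slc25a33 (chromosome 4, 149744036 to 149774267) encodes a carrier of pyrimidine nucleotides across the inner mitochondrial membrane. Slc25a33 stood at 0.581, 0.756, 0.763, 0.784 and 0.568 CPM in KO, at 1.21, 0.869, 0.741, 0.911 and 0.861 CPM in HET, and at 0.384, 1.2, 3.54, 2.38 and 1.96 CPM in WT. Here the spread lay in WT: WT-709 was the lowest of all 15 libraries, with 10 counts, and WT-720 the highest, with 99 counts. No KO library lay below every WT library. The log2 fold change of KO against WT was -1.45 ± 0.38 (SE).

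Pappa2 (chromosome 1, 158711727 to 158960451) encodes pappalysin 2, a secreted metalloprotease that cuts insulin-like growth factor binding proteins and so frees the growth factors. Pappa2 stood at 1.28, 1.4, 2.08, 4.55 and 1.91 CPM in KO, at 3.77, 3.91, 3.53, 3.9 and 3.66 CPM in HET, and at 4.73, 5.62, 4.4, 4.57 and 5.06 CPM in WT. HET libraries were tightly grouped and all below WT. The 4 other KO libraries lay below every HET library, while KO-738 lay above all of them and inside the WT range. The log2 fold change of KO against WT was -1.11 ± 0.26 (SE) with KO-738 and -1.53 without it.

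Per kilobase of exon, which allows genes to be compared, the mean WT level ran from 7.47 CPM per kb for Mep1a and 6.85 for Pipox, through 3.67 for Amdhd1, 2.86 for Treh, 2.8 for Mcoln3 and 1.91 for Kap, to 1 for Slc25a33, 0.865 for Upb1 and 0.512 for Pappa2. Mep1a exceeded 59.7% and Pappa2 exceeded 15% of the 17503 tested genes with an exon length. In WT the ranges over libraries of neighbours in this order overlapped for Mep1a and Pipox, for Amdhd1 and Treh, for Treh and Mcoln3, for Mcoln3 and Kap, for Kap and Slc25a33, and for Slc25a33 and Upb1. The WT ranges of Pipox and Amdhd1 did not overlap, nor did those of Upb1 and Pappa2. In KO the mean order was Pipox at 4.78 CPM per kb, Mep1a at 3.43, Amdhd1 at 2.6, Mcoln3 at 1.27, Upb1 at 0.659, Treh at 0.553, Kap at 0.48, Slc25a33 at 0.366 and Pappa2 at 0.236. The KO ranges of Pipox, 3.2 to 6.17 CPM per kb, and of Mep1a, 1.67 to 6.79, overlapped.

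**Figure D2:**
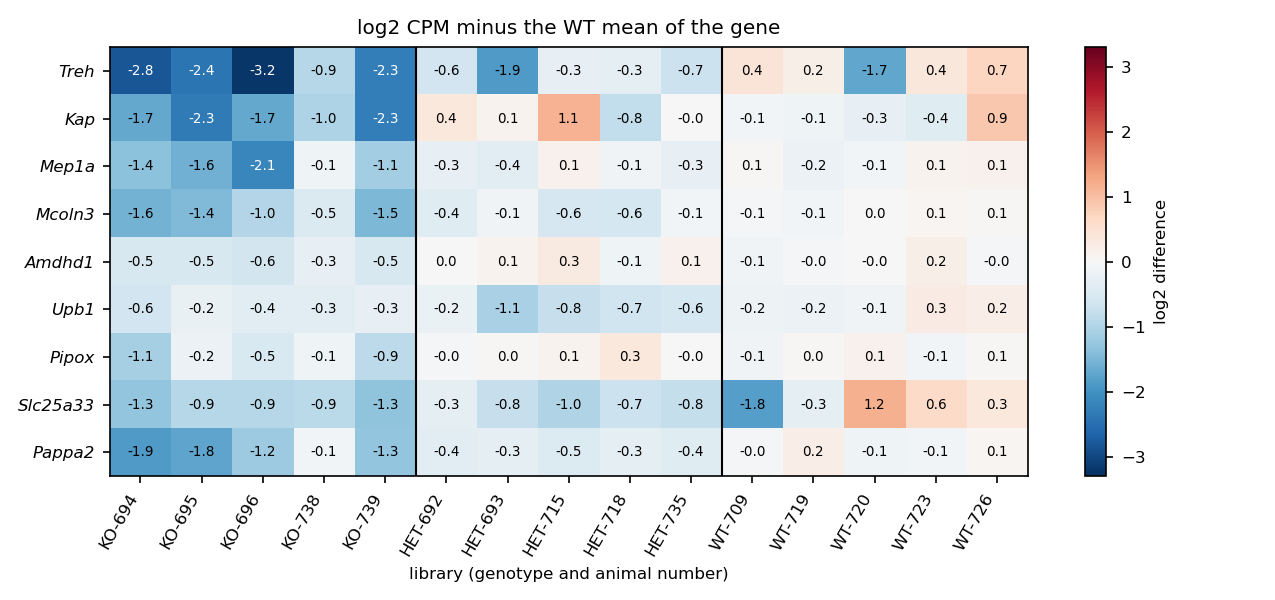
Log2 CPM (prior count of 2) of the 9 detected members in each library minus the gene's WT mean, with KO libraries left of HET and WT; blue is lower and red is higher. The 4 other KO libraries are blue for nearly every member, KO-738 is pale for Mep1a, Pipox and Pappa2, and the HET columns are blue mainly for Upb1, Slc25a33 and Treh.

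Counted together, 7 of the 9 tested members passed the threshold as lower in KO against WT by edgeR's quasi-likelihood test (adjusted p under 0.05, Benjamini-Hochberg over all tested genes), where 1.60% of all tested genes did so. The exceptions were Upb1 and Pipox. In the same comparison 4.40% of all tested genes were called higher. The members' median log2 fold change was -1.13, beside -0.01 over all tested genes. For 5 of the 9 members (Kap, Mcoln3, Amdhd1, Upb1 and Pipox) every KO library lay below every WT library, which held for 1.37% of all tested genes. The choice of members used this contrast, so nothing is read from these counts. Where HET libraries were left out of the fit the count was 4, beside 0.217% of all genes called lower. Without KO-696 the count was also 4, beside 0.308% of all genes called lower.

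KO-738 lay inside the WT range for 4 members (Treh, Mep1a, Slc25a33 and Pappa2) and below it for 5. It reached 90.8% of the WT mean for Mep1a, 93.3% for Pappa2 and 90.1% for Pipox, but 45% for Treh and 44.2% for Kap. The mean over the members of log2 CPM minus the WT mean was -0.48 in KO-738, between -1.43 and -1.27 in the other KO libraries, between -0.47 and -0.15 in HET and between -0.21 and 0.27 in WT. Without KO-738, 8 members passed the threshold as lower in KO against WT, Pipox being added, while the share of all genes called lower was 5.21%, against 1.60% with it.

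All WT animals were numbered 700 or above and 3 of the 5 KO animals below it. With the number range as a term in the fit, the log2 fold change of KO against WT was -1.89 for Treh, -1.86 for Kap, -1.07 for Mcoln3, -0.81 for Mep1a and -0.89 for Pappa2. For Slc25a33 it was -1.57, against -1.45 without the term. It was -0.44 for Amdhd1, -0.44 for Pipox and -0.38 for Upb1. Mcoln3 alone of the members passed the threshold in that fit, in which 0.0980% of all tested genes were called lower. Among animals numbered 700 and above, with KO-738 and KO-739 as the only KO animals, the log2 fold change was -1.69 for Treh, -1.74 for Kap, -0.91 for Mcoln3, -1.50 for Slc25a33, -0.56 for Mep1a and -0.59 for Pappa2. For Amdhd1, Pipox and Upb1 it was -0.41, -0.47 and -0.33. Neither a member nor any other gene passed the threshold there by edgeR; an unadjusted p under 0.05 was found for 8 members and for 15.5% of all tested genes, and the choice of members used these KO and WT libraries. Among animals numbered 700 and above, the part of KO-738 and that of the number range cannot be told apart. The part of the number range in these differences was not tested beyond these fits.

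**Figure D3:**
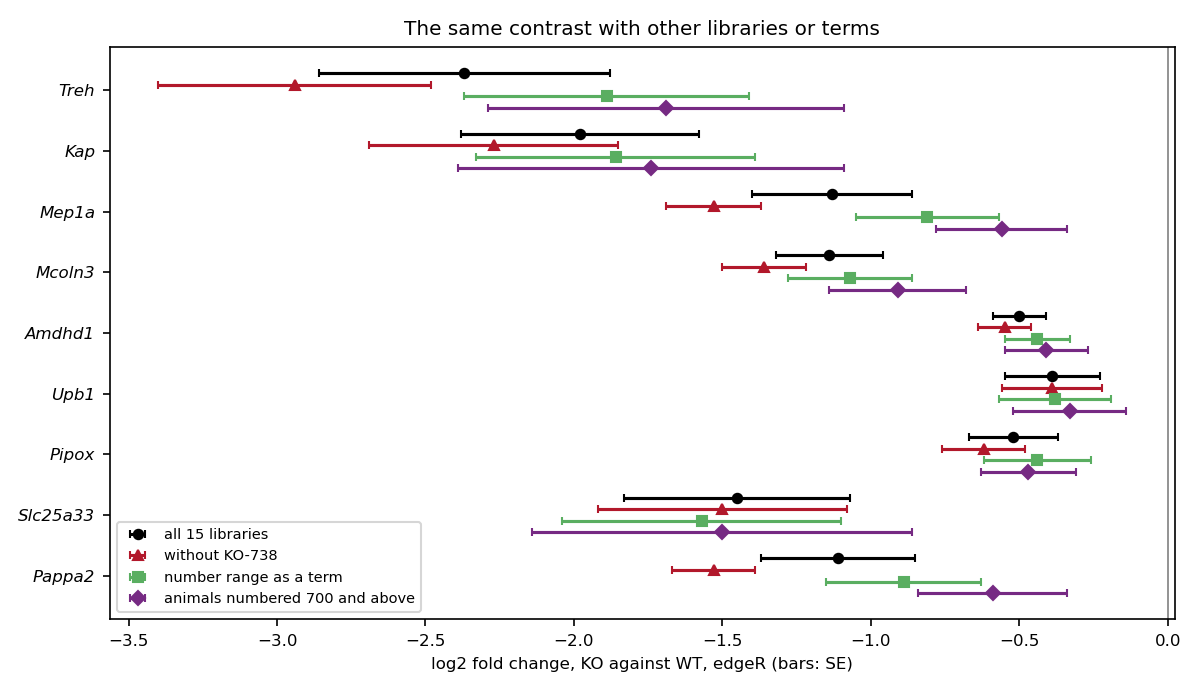
Log2 fold change of KO against WT (points, with SE bars) of the 9 tested members in 4 fits by edgeR. All points lie below 0. Mep1a and Pappa2 move to -1.53 each without KO-738 and to -0.56 and -0.59 among animals numbered 700 and above. In that number range KO-738 and KO-739 are the only KO animals.

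HET against WT asks whether the loss of 1 Plag1 copy goes with a change of the same genes. No member passed the threshold: the log2 fold changes ran from -1.05 for Slc25a33 to 0.23 for Kap. The lowest were Slc25a33, Treh and Upb1, while Kap, Amdhd1 and Pipox were slightly positive. The rule that chose the members names falls in KO; whether HET values also entered is not given. The 5 WT libraries are those of the comparison that chose them, so low HET values are not independent of that choice.

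By edgeR's quasi-likelihood test over all tested genes, 0 of the 9 tested members and 0 of all genes, or 0% of the background, were called in HET against WT. Unadjusted p-values under 0.05 were found for 2 of the 9 members, beside 854 genes or 4.4% of all tested genes. DESeq2 called 1 gene in all and 0 members, and limma voom called 0 genes. By edgeR's test across all genes, the 2 members were Upb1, at -0.66 ± 0.16 (SE, adjusted p = 0.981), and Slc25a33, at -1.05 ± 0.38 (SE, adjusted p = 0.981). Upb1 was lower in 5 of 5 HET libraries than in every WT library. Slc25a33 lay at 0.741 to 1.21 CPM in HET, inside the WT range of 0.384 to 3.54 CPM.

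The remaining members had log2 fold changes in HET against WT of -0.87 ± 0.45 for Treh, -0.38 ± 0.25 for Pappa2, -0.34 ± 0.18 for Mcoln3, -0.17 ± 0.26 for Mep1a, 0.09 ± 0.09 for Amdhd1, 0.09 ± 0.15 for Pipox and 0.23 ± 0.35 for Kap (SE), with adjusted p from 0.981 to 0.999 by edgeR. The sign of Kap turned when HET-715 was left out, to -0.11, and that of Mep1a turned with the number range as a term, to 0.10. In 6 of the 9 members the value was negative, with a median of -0.34 beside 0.01 over all tested genes. For 3 of the 9, Mcoln3, Upb1 and Pappa2, every HET library lay below every WT library, which held for 0.325% of all tested genes. Those 3 share the WT libraries with the choice of members, and the part of that choice in the count was not tested.

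**Figure D4:**
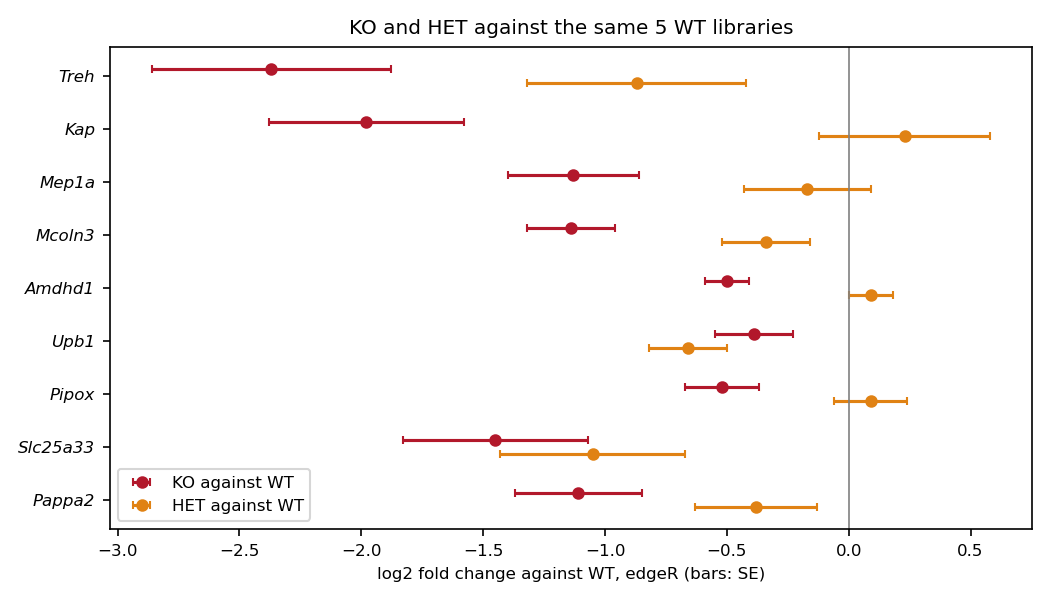
Log2 fold change against the same 5 WT libraries (points, with SE bars from edgeR) of the 9 tested members, KO in red and HET in orange. KO lies left of HET for 8 members, and for Upb1 HET lies lower, at -0.66 against -0.39 in KO.

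In KO against HET, 4 of the 9 tested members (Kap, Mcoln3, Amdhd1 and Pipox) were called lower by edgeR, where 0.351% of all tested genes were. Every KO library lay below every HET library for 3 of the 9, Kap, Amdhd1 and Pipox, which held for 1.41% of all tested genes. Because KO values chose the members, these counts are also a description. The log2 fold changes were -1.50 ± 0.49 for Treh, -0.95 ± 0.27 for Mep1a, -0.80 ± 0.18 for Mcoln3, -0.74 ± 0.26 for Pappa2, -0.61 ± 0.15 for Pipox and -0.41 ± 0.40 for Slc25a33 (SE), with a median of -0.74 over the members and -0.01 over all tested genes. Without KO-738 they were -2.07 for Treh, -1.35 for Mep1a, -1.01 for Mcoln3 and -1.15 for Pappa2. Among animals numbered 700 and above they were -1.05 for Treh, -0.46 for Mep1a, -0.48 for Mcoln3 and -0.18 for Pappa2. The count of members called lower was 7 without KO-738, where 4.59% of all genes were called lower. It was 0 without any one of KO-696, HET-693, HET-715 and HET-735, and in each of those fits 0 of all genes were called lower by edgeR.

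Other genes of the same pathways, with the members left out, were called in both directions. Of 163 distinct genes in 13 lists, 143 were tested, and in KO against WT 5 (3.5%) were called lower and 9 (6.29%) higher, beside 1.60% and 4.40% of all tested genes. Their median log2 fold change was -0.02, beside -0.01 over all tested genes. Scaled by the counts of general epithelial markers, 1 was called lower and 10 higher. In the same scaling the calls over all genes shifted to 87 lower of 1044, against 310 lower of 1163 with trimmed-mean scaling. In HET against WT 0 of these genes were called. Without KO-738, 15 were called lower and 13 higher, and without KO-696, 0 lower and 2 higher. With the animal number range as a term, 0 were called lower and 2 higher, Igf1 and Igfbp4, so every other call named for these lists in the paragraphs that follow was lost in that fit.

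Brush-border enzymes other than trehalase and meprin were called in both directions, 1 lower and 3 higher of 15 tested. Mme, which encodes the membrane peptidase neprilysin, averaged 179 ± 43.9 CPM in KO and 266 ± 25.9 CPM in WT (SD, n = 5 each), with a log2 fold change of -0.57 ± 0.13 (SE, adjusted p = 0.024, edgeR). KO-738 was at 250 CPM, inside the WT range. Mgam, a maltase-glucoamylase of the gut brush border, rose in KO by 0.94 ± 0.20 (SE, adjusted p = 0.0167, edgeR), at 3.43 ± 1.06 CPM in KO and 1.79 ± 0.305 CPM in WT (SD, n = 5 each). Dpep1, a membrane dipeptidase, was higher by 0.40 ± 0.11 and Enpp3, an ectonucleotidase, by 0.66 ± 0.18 (SE, adjusted p = 0.0365 and 0.0379, edgeR). Leaving out 1 library at a time, the call of Mme was lost in 4 of 15 fits, that of Mgam in 2, that of Dpep1 in 11 and that of Enpp3 in 10.

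Of the 13 scaffold and uptake proteins of microvilli, 0 were called, and their median was -0.10. Ezr, the microvillar linker ezrin, was at 569 ± 98.8 CPM in KO and 598 ± 65.6 CPM in WT (SD, n = 5 each), with a log2 fold change of -0.07 ± 0.11 (SE) that turned to 0.03 without KO-739. Lrp2, the endocytic receptor megalin, was at -0.46 ± 0.14 (SE, adjusted p = 0.0684, edgeR). Among astacin proteases other than the meprins, 2 of 3 were called higher: Bmp1, a procollagen protease, by 0.36 ± 0.10 and Tll1, its relative, by 0.53 ± 0.15 (SE, adjusted p = 0.0418 and 0.0484, edgeR), calls lost in 11 and 12 of the 15 fits that left out 1 library. These proteases process matrix collagens, and 8 of 9 fibroblast and matrix markers were called higher in KO as well; their part in the astacin values was not tested.

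The histidine pathway could be followed step by step around Amdhd1. Hal, which removes ammonia from histidine in the first step, was at -0.43 ± 0.19 in KO against WT, and Uroc1, the urocanate hydratase of the second step, at 0.15 ± 0.16 (SE, adjusted p = 0.171 and 0.618, edgeR). Ftcd, which takes the last product into the folate pool, was lower at -0.81 ± 0.19 (SE, adjusted p = 0.0229, edgeR), with 4.8 ± 1.58 CPM in KO and 8.39 ± 1.67 CPM in WT (SD, n = 5 each). KO-738 was at 7.37 CPM of Ftcd, inside the WT range, and Ftcd missed the threshold in 5 of the 15 fits that left out 1 library. Over the list of histidine and folate genes 1 of 8 was called lower and 0 higher.

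Around Upb1, the earlier enzymes of pyrimidine breakdown were at -0.09 ± 0.06 for Dpyd and 0.93 ± 0.31 for Dpys (SE, adjusted p = 0.426 and 0.0801, edgeR). Abat, the transaminase that uses beta-alanine, was higher in KO at 0.43 ± 0.10 (SE, adjusted p = 0.0233, edgeR), the 1 called gene of 9 in that list, lost in 5 of the 15 fits that left out 1 library. Around Pipox, Gnmt, which makes sarcosine from glycine, was lower at -0.70 ± 0.20 (SE, adjusted p = 0.0491, edgeR), the 1 called gene of 11, and it missed the threshold in 14 of 15 fits that left out 1 library. Of 11 other peroxisomal oxidation genes 0 were called. Their most abundant gene, Acox3, an acyl-CoA oxidase, was at -0.13 ± 0.06 (SE).

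Among channels and carriers outside the members, 1 gene of each list was called, both lower. Of the 12 other endolysosomal and TRP genes 1 was called: Clcn7, the lysosomal chloride transporter, at -0.23 ± 0.06 (SE, adjusted p = 0.0413, edgeR), a call lost in 14 of 15 fits that left out 1 library. The paralogues of Mcoln3 were at -0.03 ± 0.05 for Mcoln1 and 0.35 ± 0.37 for Mcoln2 (SE, adjusted p = 0.765 and 0.617, edgeR). Of 17 mitochondrial carriers 1 was called: Slc25a5, the ADP and ATP exchanger, at -0.23 ± 0.05 (SE, adjusted p = 0.0201, edgeR), lost in 3 of those fits. Slc25a36, the paralogue of Slc25a33, was at -0.16 ± 0.06 (SE, adjusted p = 0.1, edgeR).

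Of 9 tested partners of the pappalysins in growth factor signalling, 2 were called, both higher. Igf1, insulin-like growth factor 1, averaged 58.6 ± 14.9 CPM in KO and 25.6 ± 2.83 CPM in WT (SD, n = 5 each), a log2 fold change of 1.19 ± 0.16 (SE, adjusted p = 0.00335, edgeR). Igfbp4, a binding protein cut by the related Pappa, was higher by 0.68 ± 0.11 (SE, adjusted p = 0.00423, edgeR). Pappa itself was at 0.19 ± 0.17 (SE, adjusted p = 0.529, edgeR). For Igf1, KO-738 was at 32.5 CPM, above the WT range of 22.1 to 28.8 CPM and below the KO mean. Fibroblast and matrix markers summed to 2138 to 3831 CPM in KO, with KO-738 the lowest, 1928 to 2366 in HET and 1737 to 2180 in WT; their part in the Igf1 and Igfbp4 values was not tested.

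The remaining lists held 1 called gene between them. Sord, which oxidises sorbitol, was higher in KO at 0.51 ± 0.13 (SE, adjusted p = 0.0313, edgeR), the only called gene of 16 in sugar uptake and breakdown, lost in 8 of the 15 fits that left out 1 library. Of 11 genes of the androgen receptor and its targets 0 were called. Crisp1, an abundant androgen-regulated secretory protein of the epididymis, was at -0.44 ± 0.16 (SE, adjusted p = 0.113, edgeR), with 21194 ± 6264 CPM in KO and 28801 ± 2529 CPM in WT (SD, n = 5 each). Of 8 tubule and duct transcription factors 0 were called, and Pax8, needed for kidney and duct development, was at -0.14 ± 0.05 (SE, adjusted p = 0.123, edgeR).

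**Figure D5:**
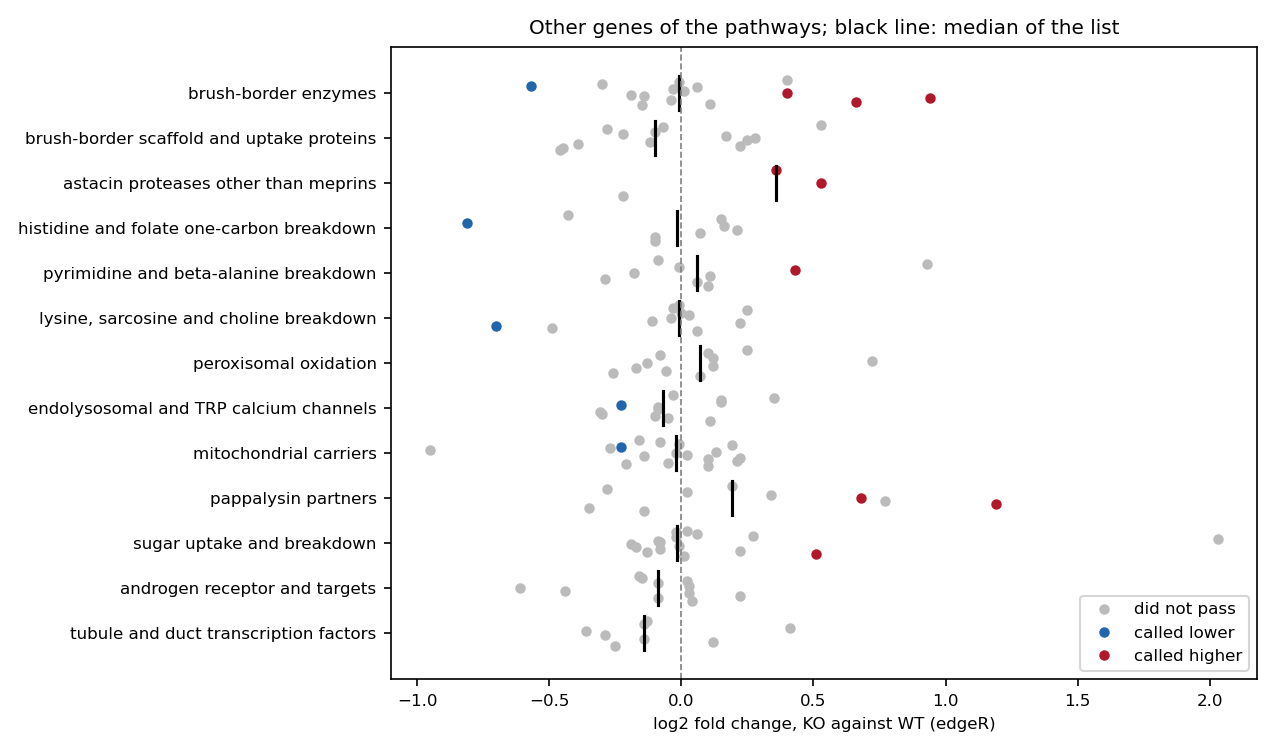
Log2 fold change of KO against WT by edgeR for the tested genes of the 13 pathway lists, members left out (1 point per gene; blue called lower, red called higher, grey not past the threshold; black line, the list's median). The medians lie between -0.14 and 0.36, and called genes fall on both sides of 0.

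Of the 20 nearest tested protein-coding genes, 1 on each side of every member, 0 were called lower in KO against WT and 1 higher. Over all tested genes 1.60% were called lower and 4.40% higher. The median log2 fold change of these chromosomal neighbours was -0.02. The called one was Adgrf5, an adhesion receptor gene that ends 14767 bases from Mep1a, at 0.39 ± 0.06 (SE, adjusted p = 0.00453, edgeR). It averaged 79.8 ± 7.83 CPM in KO and 60.9 ± 4.37 CPM in WT (SD, n = 5 each). Hal is the neighbour of Amdhd1 at a distance of 6577 bases, and Mcoln2 that of Mcoln3 at 7988 bases.

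Promoter windows of RefSeq were found for 9 members, and that of Mep1b is not shown. Those of Mcoln3, Mep1a and Pappa2 lie wholly inside the gene spans given above and not at their outer ends. The Mcoln3 window, for example, is at 146121541 to 146121840, in a span that begins at 146093277. Other start sites of these genes were not searched. Searched on both strands, CAAAGTCCA, a site of the factor HNF4, was in 2 of the 9, Treh and Pipox, and in 0.475% of 32851 promoters. Its first base lay at -71 from the start in Treh and at 15 in Pipox. The HNF1 half-site GTTAAT was in 0 of the 9 and in 7.1% of promoters. AGAACA, an androgen receptor half-site, was in 1 of the 9, Upb1, and in 19% of promoters. The TATA box TATAAA was in 1 of the 9, Kap, at -31, and in 13.6% of promoters. The PLAG1 core-and-cluster motif was in 4 of the 9, Kap, Amdhd1, Upb1 and Slc25a33, and in 32.4% of promoters. It overlapped no other searched motif in these windows. These matches describe letters and not binding.

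By Pearson's r with the mean standardised log2 CPM of the tested members over 15 libraries, which share the genotypes and KO-738, the 5 genes of at least 1 CPM most like them were Slc25a5 (0.92), Pbld2 (0.90), Zc3h12d (0.90), Peli3 (0.90) and Adgrg7 (0.90). Without KO-738 the r of these genes lay between 0.91 and 0.93. Adgrg7, an adhesion receptor gene, averaged 14.6 ± 7.11 CPM in KO and 25.6 ± 0.795 CPM in WT (SD, n = 5 each). After the mean of each genotype was taken off, the 5 most alike were Smbd1 (0.93), Npc1 (0.88), Arsg (0.87), Dhrs7b (0.87) and Arf3 (0.86). Those values rest partly on KO-738, without which the r of these 5 lay between 0.64 and 0.82.

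Of 13 kidney tubule markers 10 were under 0.5 CPM in every library; the list summed to 19 to 29.6 CPM in KO, 20.1 to 23.8 in HET and 22.2 to 28.6 in WT, most of it Napsa. Slc12a1 and Miox, defining tubule genes, were at 0 in all KO and WT libraries and did not exceed 0.043 CPM in HET. Small intestine markers summed to 1.64 to 2.26 CPM in KO, 1.99 to 2.45 in HET and 2.2 to 2.56 in WT, with Sis and Cdx1 at 0 in all libraries. Liver markers summed to 1.35 to 2.57 CPM in KO, 1.25 to 1.92 in HET and 1.08 to 1.54 in WT, with 1 of 3 tested called higher in KO. Kidney glomerulus markers summed to 75.6 to 103 CPM in KO, 55.6 to 71.8 in HET and 53.8 to 68.2 in WT, with 2 of 3 tested called higher in KO; the defining Nphs1 did not exceed 0.0925 CPM in KO and was at 0 in HET and WT.

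Markers of the labelled tissue were abundant in every library. Those of epididymal principal cells summed to 55451 to 74248 CPM in KO, 64476 to 77030 in HET and 62295 to 71288 in WT, and general epithelial markers to 1945 to 2721 CPM in KO, 2298 to 2516 in HET and 2198 to 2643 in WT. Of the 13 epithelial markers 0 were called, and of the 15 principal cell markers 1 was called higher. Clear and narrow cell markers summed to 260 to 309 CPM in KO, 283 to 307 in HET and 296 to 308 in WT, and 1 of 7 was called lower. In KO-694, KO-695, KO-696, KO-738 and KO-739 they summed to 260, 302, 264, 309 and 276 CPM. The mean over the members of log2 CPM minus the WT mean was -1.43, -1.27, -1.29, -0.48 and -1.28 in the same order. Skeletal muscle markers reached 3956 CPM in KO-739 and fat markers 247 CPM in KO, against at most 84.8 and 56 CPM in HET and 74.7 and 47.4 CPM in WT. Efferent duct markers summed to 184 to 268 CPM in KO, 174 to 194 in HET and 183 to 221 in WT, with 1 of 7 called higher. Basal cell markers summed to 524 to 621 CPM in KO, 501 to 611 in HET and 518 to 595 in WT. Germ cell markers ran from 38.4 to 191 CPM in KO, 54.5 to 98.9 in HET and 33.8 to 81.5 in WT. Of 9 germ cell markers 4 were called higher in KO, and of 6 fat markers 1, where 4.40% of all tested genes were. Fibroblast and matrix markers rose more widely: 8 of 9 were called higher, with a median log2 fold change of 0.84 in KO against WT. Their sums, by animal number from KO-694 to KO-739, were 2982, 3330, 3831, 2138 and 3773 CPM. The highest sum was 2180 CPM among WT libraries and 2366 CPM among HET libraries. KO-738, where the members fell least, was the only KO library below both values. The part of these other cell types in the members' values was not tested. Scaled by the epithelial markers, 6 members were called lower in KO against WT, where 0.449% of all tested genes were.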

How the data were processed

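The deposited values are raw read counts per NCBI Gene ID. The submitters' processing notes name GRCm38.p6 as the build, HISAT2 2.0.5, Subread 1.4.6p5 with its featureCounts, and FastQC; the strand setting and annotation release are not given in the sources used here. The input was 2 µg of RNA and the kit stranded, per the labels' protocols. RefSeq genes on GRCm38.p6 gave names to 40290 (96.9%) of 41591 IDs.

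The raw counts went into edgeR 4.0.16 in R 4.3.3 (TMM factors, filterByExpr, robust quasi-likelihood test): all 15 libraries in 1 fit, a mean for each genotype, 12 degrees of freedom left. P-values are two-sided, adjusted over 19388 genes, with a threshold of 0.05. The biological coefficient of variation was 16.3%, and counting error adds most for Kap and Slc25a33, the detected members with the fewest counts. The edgeR test was checked on simulated counts with changes set in KO. In KO against WT it recovered 59.7% of genes changed 1.5-fold, 77.6% changed 2-fold and 95.5% changed 4-fold. Of 161 calls 6 were false. Exon lengths are GENCODE M21 unions. DESeq2 1.42.0, limma 3.58.1, Python 3.11.15, pandas 2.3.3 and matplotlib 3.10.9 were also used. Whether the animals shared litters or days is not given.

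The members and lists were chosen with earlier results of these data known. Named were the members, Plag1, up to 3 called genes per list (otherwise its most abundant), called neighbours, the 5 genes most alike in each way, and markers at 0 or moving with a result. Hal, Uroc1, Dpyd, Dpys, Mcoln1, Mcoln2, Slc25a36, Pappa, Lrp2, Enpp3 and the overlapping genes were named outside that rule, after their values were seen.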

Additional observations from a re-analysis of the deposited data

Results flagged for a closer look

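Among 30 groups of 5 libraries (9 detected members and Plag1 in 3 genotypes), 4 held a library whose gap to the nearest other, divided by the group's range, exceeded Dixon's critical value for 5 samples; chance flags about 1 in 20 groups. In 3 of the 4 it was KO-738. KO-738 held 2.63 CPM of Treh, where the remaining KO libraries held 0.485 to 0.986. It held 7.31 CPM of Amdhd1, where they held 5.82 to 6.13. It held 4.55 CPM of Pappa2, where they held 1.28 to 2.08. The last was Kap, at 2.41 CPM in WT-726, where the remaining WT libraries held 0.951 to 1.19.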

How the results depend on the processing

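In HET against WT 0 members were called under every alternative run. Members called lower in KO against WT (7) numbered 1 with the animal number range as a term, 0 among animals numbered 700 and above, 4 with only the 2 genotypes compared, and 4 (without KO-696) to 8 (without KO-738) when 1 library was left out. Treh, Kap, Mcoln3 and Amdhd1 were called in all 15 of those fits, Mep1a was lost in 7, Slc25a33 in 11 and Pappa2 in 3. Of all genes, 1.60% were called lower in the main fit of KO against WT. That share was 0.0980% with the number range as a term and 0% among animals numbered 700 and above. With only the 2 genotypes compared it was 0.217%, without KO-696 0.308% and without KO-738 5.21%. Members called lower in KO against HET (4) numbered 0 among animals numbered 700 and above, 0 with only the 2 genotypes compared, 2 with epithelial scaling, 7 without KO-738 and HET-693, and 0 to 7 when 1 library was left out. The share of all genes called lower was 0.351% in the main fit of KO against HET. It was 0% among animals numbered 700 and above and with only the 2 genotypes compared, and 0.0361% with epithelial scaling. Without KO-738 and HET-693 it was 3.32%, and with 1 library left out 0% to 4.59%. Pathway genes called (14) numbered 2 with the number range as a term, 22 with limma voom, 0 among animals numbered 700 and above, 3 with only the 2 genotypes compared, 23 without KO-738 and HET-693, and 2 (without KO-696) to 28 (without KO-738) with 1 library left out. Called neighbours (1) numbered 3 with DESeq2, 2 with limma voom, 0 among animals numbered 700 and above, 4 without KO-738 and HET-693, and 1 to 4 with 1 library left out. The fits on animals numbered 700 and above hold 2 KO animals. Direction turned for Kap in HET against WT without HET-715 (-0.11, with 1 library left out -0.11 to 0.53), for Mep1a in HET against WT with the number range as a term (0.10), for Ezr in KO against WT without KO-739 (0.03, with 1 library left out -0.14 to 0.03), for Mcoln1 among animals numbered 700 and above (0.02) and with epithelial scaling (0.06), and in that number range for Pappa (-0.03) and Dpyd (0.01). The cause of these shifts was not tested. The median log2 fold change of all genes in KO against WT was 0.07 with epithelial scaling. No paired analysis was made, because the labels name no litter or day by which animals could be paired. Kap, Slc25a33 and Treh had the smallest counts in a single library, down to 7, 10 and 17. Counts over all genes moved as well: in KO against WT 310 genes were called lower, against 19 with the number range as a term, 0 among animals numbered 700 and above and 1018 without KO-738.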
